A study of Mus musculus with 6 samples.

Results

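The genes described here are the inhibitors of cyclin-dependent kinases (CDKs) and the D-type cyclins, together with the 2 kinases that both bind. They were found by symbol in the deposited table: Cdkn1a, Cdkn1b and Cdkn1c (the CIP/KIP inhibitors), Cdkn2c and Cdkn2d (INK4 inhibitors), Ccnd1, Ccnd2 and Ccnd3 (the D-type cyclins), and Cdk4 and Cdk6. All 10 were present among the 32544 genes of the table. The samples were S2 and S3 segments of kidney proximal tubules, the later parts of the tubule, taken by microdissection from C57Bl/6 mice that the submitters call control mice. The mice had received 1 injection 24 h earlier, either of aristolochic acid I (group AA) or of dimethyl sulfoxide (group DMSO), with a stated dose of 3 mg/kg for both. Aristolochic acid I is a plant toxin that forms bulky adducts on DNA. Each group had 3 libraries of polyadenylated RNA, each from 5 to 10 tubules pooled from a kidney. Nothing in the labels ties the libraries to different animals, and p-values therefore measure only the spread between these libraries, which may be technical.

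Passage from G1 into S phase is set by how much active CDK a cell holds. D-type cyclins bind CDK4 or CDK6 and start the phosphorylation of the retinoblastoma protein, which then releases E2F transcription factors. INK4 proteins bind CDK4 and CDK6 directly, whereas CIP/KIP proteins bind cyclin-CDK complexes, blocking CDK2 and also helping cyclin D and CDK4 to assemble. The tubular epithelium of the adult kidney divides rarely. Cdkn1a encodes p21, a classic transcriptional target of p53 that is known to rise in injured tubules.

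Values are CPM, the reads of a gene scaled to a common library total. Depth ranged over 13304877 to 31136251 reads per library, and a single read was worth 0.0321 to 0.0752 CPM. Correlations of log2 values over genes were 0.9696 to 0.9796 within groups and 0.9181 to 0.9499 between groups. A gene was tested if it reached 1 CPM in at least 3 libraries, which 14311 genes did, and all 10 genes of the set were among them. Of the tested genes, 30.9% were called at an adjusted p under 0.05 in limma's test of log2(CPM + 1), 22.3% higher and 8.66% lower in AA. The scaling of the libraries moved that split, from 3187 higher and 1239 lower calls as deposited to 1606 higher and 2422 lower when library medians were equalised. Over all tested genes the log2 fold change had a median of 0.21 as deposited and -0.053 with equalised medians. An earlier analysis of these data had found DMSO replicates 1 and 2 to stand apart from DMSO replicate 3, so a fit with a term for those 2 libraries, which leaves DMSO replicate 3 as the only baseline, is given where it matters.

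The tissue label was checked against its markers. S2 and S3 markers (7 genes, among them Slc22a6 and Slc7a13) summed to 9351 to 12285 CPM in DMSO and 4573 to 6556 CPM in AA. S1 markers (6 genes) were as high, at 9301 to 12819 CPM in DMSO and 4471 to 5648 CPM in AA. Their sum exceeded the S2 and S3 sum in DMSO replicate 1 and AA replicate 1. It rested largely on 1 gene, Lrp2, at 6251 to 8476 CPM in DMSO and 2323 to 3440 CPM in AA. The sums thus mark the RNA as proximal tubule without setting S2 and S3 apart from S1. Thin limb markers, which include Aqp1, a gene that the proximal tubule also expresses, summed to 1626 to 1779 CPM in DMSO and 1652 to 2201 CPM in AA. The summed markers of several other cell types were higher in every AA library than in every DMSO library. The sum for stroma was 70.7 to 96.4 CPM in DMSO and 132 to 153 CPM in AA. For endothelium it was 222 to 335 and 346 to 394 CPM, and for collecting duct principal cells 16.0 to 33.5 and 50.1 to 94.1 CPM. Gene by gene, AA lay above DMSO for 6 of 6 stromal, 5 of 8 endothelial and 4 of 6 collecting duct markers. Over all tested genes, AA and DMSO values did not overlap for 46.4%, in either direction. Thick ascending limb markers overlapped between the groups, at 238 to 532 CPM in DMSO and 343 to 1320 CPM in AA, with the highest sum in AA replicate 2. None of these lists had a gene at 0 in all libraries. In such bulk samples, fewer cells of a type and less RNA per cell cannot be told apart.

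Cdkn1a was nearly silent in DMSO tubules and became the most abundant gene of the set in AA tubules, while its relatives Cdkn1b and Cdkn1c were not called. Of the 10 genes, 2 were called higher (Cdkn1a and Ccnd2), 0 were called lower and 8 were not called, against 22.3% called higher and 8.66% called lower over all tested genes. The 10 genes had a median log2 fold change of 0.29, beside 0.21 over all tested genes. AA and DMSO values did not overlap for 3 of the 10 genes (Cdkn1a, Ccnd2 and Cdk4, all higher in AA), beside 46.4% of all tested genes. When library medians were equalised, the counts of the set were 2 higher and 1 lower, the latter being Ccnd3, beside 11.2% called higher and 16.9% called lower over all tested genes.

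**Figure D1:**
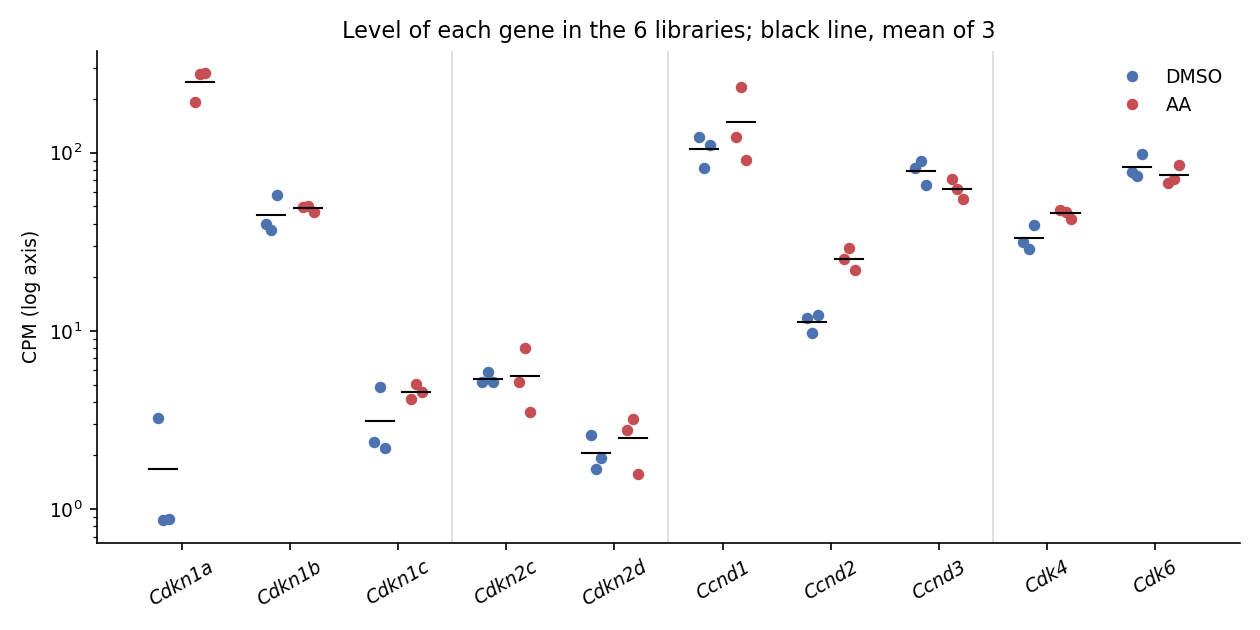
CPM of each of the 10 genes in the 6 libraries, 3 DMSO and 3 AA, on a log axis, with black lines at the means. Cdkn1a moves from 0.867 to 3.26 CPM in DMSO to 192 to 279 CPM in AA, and no other gene of the set changes on that scale.

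Cdkn1a lies on chromosome 17 (29090976 to 29100727, plus strand, mm10, GENCODE M21). The RefSeq promoter table lists 2 start sites for it. The 100 bases before the upstream start (chr17:29090879-29090978, plus strand, GRCm38.p6) are shown because they hold a match to the p53 response element, in capitals.

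Cdkn1a, upstream start: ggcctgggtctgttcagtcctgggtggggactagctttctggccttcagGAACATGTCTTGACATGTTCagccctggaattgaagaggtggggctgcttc

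The match runs from 29090928 to 29090947, leaves 31 bases to the start site and has 1 mismatch to the consensus p53 response element, which is 20 bases long. The search covered both strands of windows from 250 bases before to 50 after each start. With up to 1 mismatch, 22 of 32851 such windows (0.067%) held a match, and no other window of the set did. The motif was chosen for the search after this sequence had been seen. A match of letters is not a measured binding site. The 110 bases before the downstream start (chr17:29093659-29093768, plus strand) hold 2 GC boxes (GGGCGG, searched on both strands, in 35.7% of all windows) and no match to the p53 element.

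Cdkn1a, downstream start: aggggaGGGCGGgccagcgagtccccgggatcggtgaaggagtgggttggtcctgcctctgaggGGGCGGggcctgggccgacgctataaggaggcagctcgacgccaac

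The deposited values are per gene, so transcripts from the 2 start sites were not told apart. The motif search found windows for 7 of the 10 genes. Cdkn1c, Ccnd1 and Ccnd2 were not in the table.

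Cdkn1a stood at 3.26, 0.867 and 0.877 CPM in the DMSO libraries (in the order of replicates 1, 2 and 3, kept for all genes), from 78, 27 and 14 reads. In the AA libraries it stood at 192, 276 and 279 CPM, from 2550, 4910 and 3887 reads. Every AA library was above every DMSO library, and DMSO replicate 1 was the highest of its group. The mean rose from 1.67 ± 1.38 CPM (SD, n = 3) to 249 ± 49.5 CPM (SD, n = 3), a 149-fold difference of means. Its log2 fold change was 6.64 with a standard error of 0.30 (95% interval 5.98 to 7.31, adjusted p = 8.87e-07). On the log2(CPM + 1) scale, which limits the change of genes near 0, it was the highest of all 14311 tested genes. By the ratio of means, some genes with less RNA in DMSO ranked higher, such as Krt20, at 0.209, 0 and 0 CPM in DMSO. Leaving out each library in turn gave 6.44 to 7.04, so the rise did not rest on 1 library.

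Cdkn1b encodes p27, the CIP/KIP protein best known for holding resting cells out of the cycle (chromosome 6, 134920401 to 134925513, plus strand). Its values were 40.0, 36.8 and 58.0 CPM in DMSO and 49.8, 49.96 and 46.3 CPM in AA. The AA values lay inside the DMSO range. The log2 fold change was 0.14 with a 95% interval of -0.25 to 0.53 (adjusted p = 0.575), and its sign turned to -0.12 with equalised medians.

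Cdkn1c encodes p57, an imprinted inhibitor that in the kidney is best known from podocytes (chromosome 7, 143458339 to 143461050, minus strand). It stood at 2.39, 4.85 and 2.193 CPM in DMSO and at 4.13, 5.05 and 4.52 CPM in AA. DMSO replicate 2 fell among the AA libraries, and the other DMSO libraries lay below them. Its log2 fold change was 0.48 (95% interval -0.15 to 1.11, adjusted p = 0.219). Podocyte markers summed to 58.7 to 81.4 CPM in DMSO and 88.5 to 137 CPM in AA. Of the 6 markers, only 1 was higher in every AA library than in every DMSO library. Nphs1 overlapped, at 4.39 to 5.56 CPM in DMSO and 4.06 to 6.45 CPM in AA. The part of podocyte RNA in the Cdkn1c values was not tested.

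Dividing CPM by the length of the longest coding transcript allowed the 3 genes to be compared with each other. Per kilobase, Cdkn1b held 79.3 ± 8.503% (SD, n = 3) of the summed CIP/KIP level in DMSO tubules and 8.28 ± 1.86% in AA tubules. The share of Cdkn1a was 13.5, 3.77 and 2.95% across DMSO and 87.5, 90.7 and 91.4% across AA. The leading CIP/KIP transcript was thus Cdkn1b in every DMSO library and Cdkn1a in every AA library. The ratio of Cdkn1a to Cdkn1b, which does not depend on library scaling, was 0.0331 to 0.179 in DMSO and 8.42 to 13.2 in AA. On the log2 scale the ratio differed by 7.36. An exact two-sided permutation test gave p = 0.1, the smallest value that 3 against 3 libraries can give (0.1 after adjustment over the 4 ratios computed here).

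**Figure D2:**
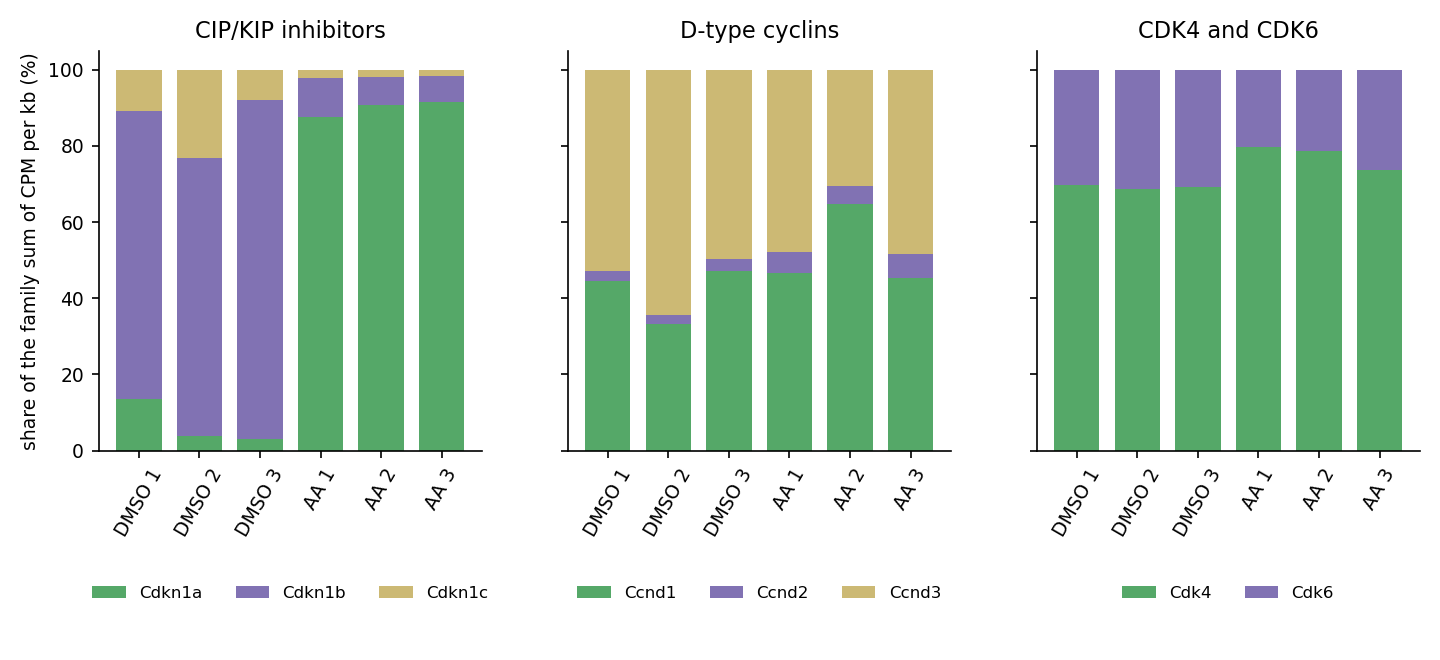
Share of each gene in the summed CPM per kilobase of its family, in percent, for the 6 libraries. Cdkn1a fills 87.5 to 91.4% of the CIP/KIP bar in AA and 2.95 to 13.5% in DMSO, whereas the bars of the D-type cyclins and of CDK4 and CDK6 are less altered.

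The INK4 inhibitors of the set were low in both groups. Cdkn2c, which encodes p18 (chromosome 4, 109660876 to 109667189, minus strand), was at 5.15, 5.85 and 5.14 CPM in DMSO and 5.19, 7.97 and 3.52 CPM in AA. The AA libraries spread on both sides of the DMSO values. Its log2 fold change was -0.01 (95% interval -0.62 to 0.60, adjusted p = 0.9754), with a sign that changed between settings. Cdkn2d, which encodes p19 of the INK4 family (chromosome 9, 21288410 to 21291407, minus strand), was at 2.59, 1.67 and 1.94 CPM in DMSO and 2.78, 3.199 and 1.58 CPM in AA. The groups overlapped, and the log2 fold change was 0.18 (95% interval -0.44 to 0.80, adjusted p = 0.661), or -0.08 with equalised medians.

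Among the D-type cyclins, Ccnd2 was called, and the more abundant Ccnd1 and Ccnd3 were not. Ccnd2 (chromosome 6, 127125162 to 127152193, minus strand) stood at 11.8, 9.70 and 12.3 CPM in DMSO and at 25.2, 29.3 and 21.9 CPM in AA. The lowest AA library was above the highest DMSO library. The mean rose from 11.3 ± 1.39 CPM (SD, n = 3) to 25.5 ± 3.71 CPM (SD, n = 3), which is 2.26-fold. The log2 fold change was 1.11 with a standard error of 0.19 (95% interval 0.69 to 1.53, adjusted p = 0.00196). It was 0.85 with equalised medians (adjusted p = 0.00797) and 0.98 against DMSO replicate 3 as the only baseline (adjusted p = 0.0477). The stromal, endothelial and collecting duct marker sums were also higher in every AA library, and their part in the Ccnd2 result was not tested.

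Ccnd1 encodes cyclin D1, the D-type cyclin most often linked to mitogenic signals (chromosome 7, 144929931 to 144939925, minus strand). It stood at 122, 81.6 and 111 CPM in DMSO and at 122, 235 and 90.4 CPM in AA. AA replicate 2 was the highest of all 6 libraries, and the other AA libraries lay within the DMSO range. Over all 6 libraries the log2 fold change was 0.41 (95% interval -0.23 to 1.04, adjusted p = 0.303), and 0.02 without AA replicate 2. That library also had the most reads of thick ascending limb markers (1320 CPM) and of collecting duct principal cell markers (94.1 CPM), and their part in its Ccnd1 value was not tested.

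Ccnd3 (chromosome 17, 47505051 to 47599691, plus strand) stood at 81.7, 89.2 and 66.0 CPM in DMSO and at 70.8, 62.6 and 54.6 CPM in AA. Only AA replicate 1 exceeded the lowest DMSO library. As deposited, the log2 fold change was -0.33 (95% interval -0.67 to 0.02, adjusted p = 0.138). The call depended on the scaling: it was -0.59 with equalised medians (adjusted p = 0.0251), -0.48 with quantile normalization (adjusted p = 0.0493) and -0.53 with TMM factors (adjusted p = 0.0359). Against DMSO replicate 3 as the only baseline it was -0.08 (adjusted p = 0.841).

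Within libraries, the ratio of Ccnd1 to Ccnd2 per kilobase was 17.6, 14.2 and 15.2 in DMSO and 8.20, 13.6 and 6.99 in AA. All AA ratios were lower, and AA replicate 2 was close to the DMSO values. The mean log2 ratio differed by -0.76 (exact permutation p = 0.1). Ccnd2 made up 2.66 ± 0.396% of the summed D-type cyclin level in DMSO and 5.64 ± 0.851% in AA (SD, n = 3 each), and so remained the smallest part of it. The sum of the CIP/KIP genes per kilobase was 0.159, 0.169 and 0.228 of the D-type cyclin sum in DMSO, and 1.502, 1.506 and 2.74 times that sum in AA. The transcripts of CIP/KIP inhibitors were thus fewer than those of D-type cyclins in each DMSO library and more numerous in each AA library (log2 difference 3.33, exact permutation p = 0.1, or 2.51 with merged exon lengths, since the exons of Ccnd3 merge to 8775 bases and its longest coding transcript has 2113).

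Cdk4 and Cdk6 encode the kinases that D-type cyclins activate. The 190 bases before the Cdk4 start (chr10:127063345-127063534, plus strand, GRCm38.p6) are shown because they hold 4 E-boxes (CACGTG, which reads the same on both strands), the motif that Myc and its partner Max bind, in capitals.

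Cdk4: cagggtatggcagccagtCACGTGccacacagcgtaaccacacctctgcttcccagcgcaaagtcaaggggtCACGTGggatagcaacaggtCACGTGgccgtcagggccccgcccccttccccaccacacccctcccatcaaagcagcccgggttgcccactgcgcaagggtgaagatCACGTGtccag

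An E-box occurred in 7.15% of the 32851 windows, and 4 or more in 8 of them (0.024%). The threshold of 4 equals the count of the Cdk4 window, which is itself among the 8, so that share is a description. Cdkn2c and Cdk6 had 1 E-box each in a window. AP-1 motifs (TGANTCA) and CHR motifs (TTTGAA), searched on both strands, occurred in 7.81% and 17.9% of all windows and in 0 windows of the set.

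Cdk4 (chromosome 10, 127063534 to 127067920, plus strand) stood at 31.7, 28.9 and 39.2 CPM in DMSO and at 47.6, 46.5 and 42.6 CPM in AA. All AA libraries were above all DMSO libraries. The log2 fold change was 0.45 (95% interval 0.10 to 0.80), and the adjusted p of 0.0502 missed the threshold. It passed with voom weights on whole reads (adjusted p = 0.0447), a filter of 4 CPM (0.046), a robust variance (0.0485) and without DMSO replicate 3 (0.029). Without any other single library it did not pass (adjusted p 0.0855 to 0.133). The log2 fold change was 0.19 with equalised medians (adjusted p = 0.403), 0.26 with quantile normalization (0.252) and 0.25 with TMM factors (0.269). Against DMSO replicate 3 as the only baseline it was 0.21. Cdk6 (chromosome 5, 3341485 to 3531008, plus strand) stood at 77.5, 73.8 and 97.6 CPM in DMSO and 67.9, 71.2 and 85.4 CPM in AA. The groups overlapped, and the log2 fold change was -0.14 (95% interval -0.48 to 0.20, adjusted p = 0.507). The ratio of Cdk4 to Cdk6 per kilobase was 2.30, 2.20 and 2.26 in DMSO and 3.93, 3.67 and 2.80 in AA. It was higher in every AA library (log2 difference 0.61, exact permutation p = 0.1), and Cdk4 was the larger of the pair in all 6 libraries.

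**Figure D3:**
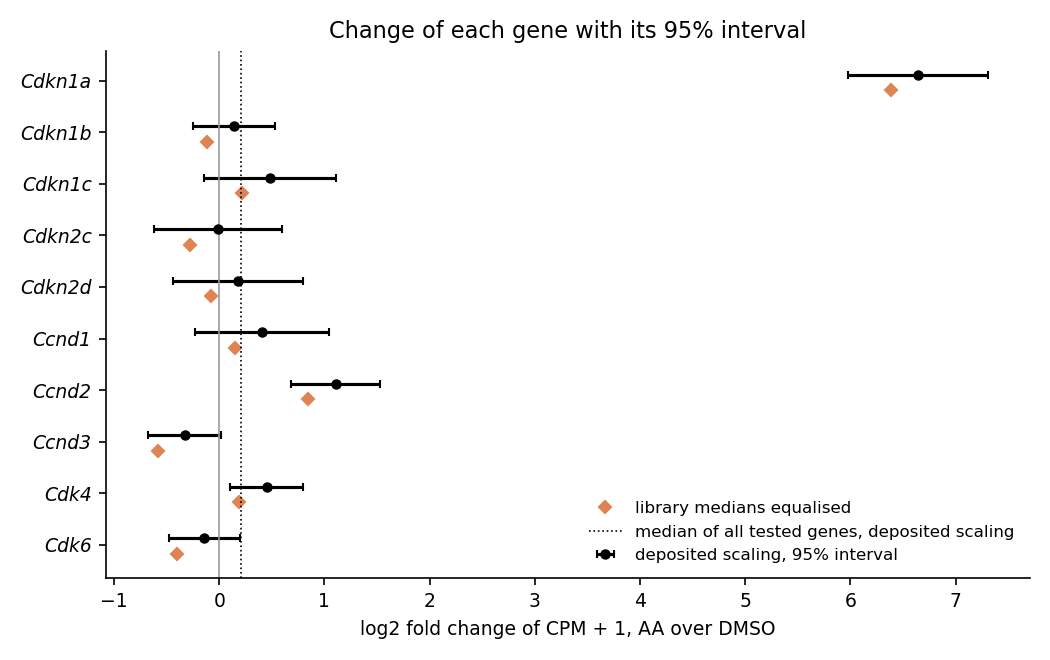
Log2 fold change of CPM + 1, AA over DMSO, of the 10 genes with 95% intervals (black), with equalised library medians (diamonds) and the median of all tested genes (dotted line). The intervals of Cdkn1a (5.98 to 7.31), Ccnd2 (0.69 to 1.53) and Cdk4 (0.10 to 0.80) lie above 0, and Cdk4 missed the threshold after adjustment.

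Ordered by mean CPM per kilobase, DMSO tubules held Ccnd3 (37.4 ± 5.60), Ccnd1 (28.0 ± 5.60), Cdk4 (16.2 ± 2.61), Cdkn1b (9.87 ± 2.503) and Cdk6 (7.20 ± 1.11), each as mean ± SD of 3 libraries. Below them came Cdkn2c (2.18 ± 0.164), Ccnd2 (1.78 ± 0.220), Cdkn1c (1.65 ± 0.779), Cdkn2d (1.45 ± 0.334) and Cdkn1a (0.803 ± 0.664). Neighbours whose values overlapped were Ccnd3 and Ccnd1, Cdkn1b and Cdk6, and each neighbouring pair from Ccnd2 down to Cdkn1a. In AA tubules the order began with Cdkn1a (119.6 ± 23.8), Ccnd1 (39.9 ± 20.3), Ccnd3 (29.7 ± 3.84) and Cdk4 (22.2 ± 1.28), again as mean ± SD of 3 libraries. It went on with Cdkn1b (10.7 ± 0.454), Cdk6 (6.49 ± 0.805), Ccnd2 (4.02 ± 0.586), Cdkn1c (2.40 ± 0.242), Cdkn2c (2.25 ± 0.910) and Cdkn2d (1.77 ± 0.591). There, Ccnd1 overlapped with Ccnd3, Cdkn1c with Cdkn2c, and Cdkn2c with Cdkn2d. Cdkn1a thus went from the last place to the first. The higher AA mean of Ccnd1 than of Ccnd3 came from AA replicate 2 (62.8 against 29.6), and Ccnd1 was below Ccnd3 in the other 5 libraries. With merged exon lengths Cdkn1a was again last in DMSO and first in AA, whereas Ccnd1 was first in DMSO and Ccnd3 took place 4 in DMSO and 5 in AA.

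The other genes of the pathway were taken from a list of 59 genes, of which 52 were tested. In AA tubules 10 were called higher, 2 lower and 40 not called, with a median log2 fold change of 0.21, the same as over all tested genes. The shares called higher and lower over all tested genes were 22.3% and 8.66%. With equalised medians the counts were 7 higher and 8 lower, beside 11.2% and 16.9% over all tested genes, and against DMSO replicate 3 as the only baseline 5 higher and 1 lower, without the calls of Cdkn2b, Cks1b, E2f6, Fbxo4, Klf4 and Ambra1.

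Of 9 transcriptional regulators of the set, 4 were called higher and 0 lower, beside 22.3% and 8.66% over all tested genes. Jun, a subunit of AP-1, was at 18.5, 26.3 and 19.6 CPM in DMSO and at 136, 129 and 177 CPM in AA (log2 fold change 2.73, adjusted p = 6.05e-06). Myc, which activates Cdk4 and represses Cdkn1a in other systems, was at 5.69, 3.92 and 6.89 CPM in DMSO and 36.4, 24.3 and 39.1 CPM in AA (log2 fold change 2.40, adjusted p = 8.86e-05). Trp53, which encodes p53, was at 29.8, 35.5 and 32.0 CPM in DMSO and 75.2, 70.2 and 90.8 CPM in AA (log2 fold change 1.25, adjusted p = 0.000237). Klf4, known as a cofactor of p53 at Cdkn1a, was higher by 1.38 on the log2 scale (adjusted p = 0.00343, or 0.0751 against DMSO replicate 3 as the only baseline). For each of these 4 genes, every AA library was above every DMSO library. Of all 9, AA and DMSO values did not overlap for 6 (5 higher and 1 lower in AA), beside 46.4% of all tested genes.

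The remaining INK4 genes share a locus on chromosome 4. Cdkn2b, which encodes p15, was low in DMSO at 0.460, 0.225 and 0.313 CPM, and was at 1.43, 6.06 and 1.15 CPM in AA. AA replicate 2 was far above the others. The log2 fold change was 1.32 (adjusted p = 0.0331). It was 0.78 (adjusted p = 0.113) without AA replicate 2, and the call was also lost without each of the 3 DMSO libraries in turn, where the adjusted p was 0.0519 to 0.0850. With equalised medians (adjusted p = 0.076) and quantile normalization (0.107) the call was lost, and with TMM factors it was kept (0.0459). Without the filter on low values (adjusted p = 0.0754) and with a pseudocount of 5 (0.0639) it was lost too. Cdkn2a had 50 reads (2.09 CPM) in DMSO replicate 1. It had 0 reads in DMSO replicate 2, DMSO replicate 3, AA replicate 1 and AA replicate 3, where 3 reads would be 0.0964 to 0.225 CPM. AA replicate 2 had 1 read of it, and the gene did not reach the level filter. DMSO replicate 1 was also the DMSO library with the most Cdkn1a, and a link between these values was not tested.

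**Figure D4:**
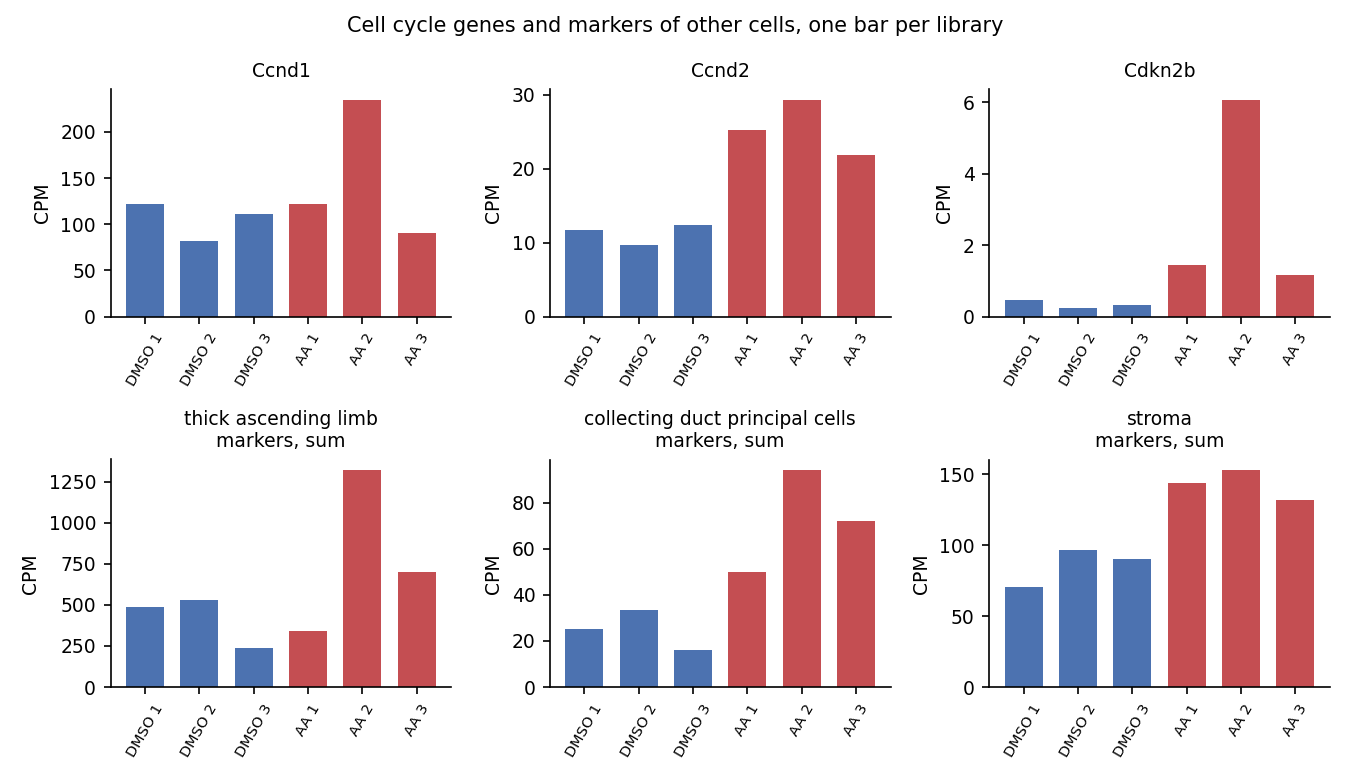
CPM of Ccnd1, Ccnd2 and Cdkn2b (top) and summed CPM of the markers of thick ascending limb, collecting duct principal cells and stroma (bottom), 1 bar per library on linear axes from 0. AA replicate 2 is the highest library in all 6 panels, reaching 235 CPM for Ccnd1 and 6.06 CPM for Cdkn2b.

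Cyclins and kinases of the later cycle were low. Of 8 such genes 4 were tested and 0 called by limma, beside 22.3% called higher and 8.66% lower over all tested genes. Their median log2 fold change was 0.60, beside 0.21 over all tested genes. Cdk2, the partner of cyclins E and A, was at 8.16 to 9.65 CPM in DMSO and 9.09 to 13.4 CPM in AA (log2 fold change 0.34, adjusted p = 0.246). Ccne2, a cyclin E, was at 0.931 to 4.14 CPM in DMSO and 3.91 to 9.77 CPM in AA (log2 fold change 1.06, adjusted p = 0.062). It passed with voom weights on whole reads (adjusted p = 0.0468) and with a block for the replicate number (0.0414). It also passed without AA replicate 1 or DMSO replicate 3 (adjusted p = 0.0404 and 0.027). It did not pass without any other single library (adjusted p 0.0794 to 0.203). The log2 fold change of Ccne2 was 0.64 (adjusted p = 0.1998) without DMSO replicate 2 and 0.80 (adjusted p = 0.161) with equalised medians. Against DMSO replicate 3 as the only baseline it was 0.50. Ccna2, a cyclin A, did not overlap, at 0.564 to 1.83 CPM in DMSO and 1.88 to 3.45 CPM in AA (log2 fold change 0.84, adjusted p = 0.0622). It passed with array weights (adjusted p = 0.0355), with no variance trend (0.0474) and without DMSO replicate 2 (0.0305). Without any other single library it did not pass (adjusted p 0.0628 to 0.179), nor with equalised medians (0.167). Proliferation markers summed to 8.84 to 17.2 CPM in DMSO and 9.47 to 13.9 CPM in AA and so overlapped.

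Of 11 genes that activate or restrain CDKs, 9 were tested, 2 called higher and 0 lower, beside 22.3% and 8.66% over all tested genes. The counts with equalised medians were 1 higher and 0 lower, beside 11.2% and 16.9% over all tested genes. Cdc25a, a phosphatase that activates CDKs, rose from 10.95 ± 2.03 to 20.51 ± 2.47 CPM (SD, n = 3 each, log2 fold change 0.85, adjusted p = 0.00935). Cks1b, a CDK-binding cofactor of the ligase that degrades p27, rose from 1.11 ± 0.479 to 3.28 ± 0.112 CPM (log2 fold change 1.05, adjusted p = 0.0148). The call of Cks1b was lost without AA replicate 2 (adjusted p = 0.0512) and with equalised medians (adjusted p = 0.0526).

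Of 18 retinoblastoma family, E2F and DREAM complex genes, 1 was called higher and 0 lower, beside 22.3% and 8.66% over all tested genes. Their median log2 fold change was -0.04, beside 0.21 over all tested genes. E2f6, a repressive E2F, rose from 15.3 ± 1.85 to 24.1 ± 2.57 CPM (SD, n = 3 each, log2 fold change 0.62, adjusted p = 0.023). That call was lost with equalised medians (adjusted p = 0.117), and without AA replicate 2, AA replicate 3 or DMSO replicate 1 (adjusted p of 0.0941, 0.0651 and 0.0672). With equalised medians 0 were higher and 3 of the 18 lower, beside 11.2% and 16.9% over all tested genes under that scaling.

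Of 11 genes for the turnover of cyclins and inhibitors, 2 were called higher and 2 lower, beside 22.3% and 8.66% over all tested genes. The counts with equalised medians were 2 higher and 4 lower, beside 11.2% and 16.9% over all tested genes. Usp2, a deubiquitinase that stabilizes cyclin D1, fell from 205 ± 39.3 to 81.9 ± 16.2 CPM (SD, n = 3 each, log2 fold change -1.32, adjusted p = 0.000567). Ambra1, the substrate receptor that marks D-type cyclins for degradation, fell from 82.8 ± 10.9 to 57.8 ± 1.55 CPM (log2 fold change -0.50, adjusted p = 0.0194), a call lost without DMSO replicate 2 or any 1 of the AA libraries (adjusted p 0.0510 to 0.0583). Fbxw7, which marks cyclin E and Myc for degradation, rose from 17.2 ± 0.465 to 35.2 ± 6.10 CPM (log2 fold change 0.98, adjusted p = 0.00244). Fbxo4, an F-box protein that has been linked to cyclin D1, rose from 11.7 ± 0.940 to 21.9 ± 2.98 CPM (log2 fold change 0.84, adjusted p = 0.00701). Against DMSO replicate 3 as the only baseline, the calls of Ambra1 (adjusted p = 0.266) and Fbxo4 (adjusted p = 0.0797) were lost.

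**Figure D5:**
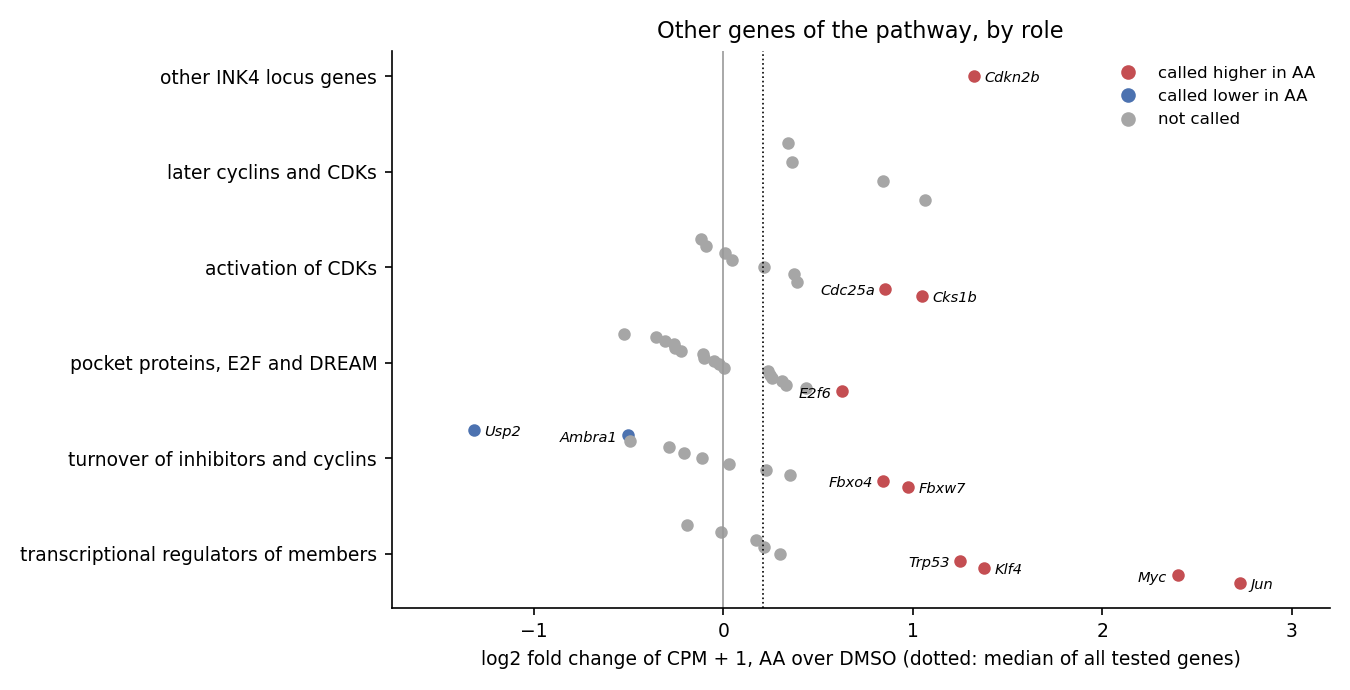
Log2 fold change of CPM + 1, AA over DMSO, of the 52 tested genes of the pathway by role, with called genes in colour and named. The dotted line is the median of all tested genes, 0.21, and the 4 called regulators lie at 1.25 to 2.73.

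Tested genes were ranked by how close their log2(CPM + 1) profile over the 6 libraries, centred on its mean, was to that of Cdkn1a, as a root mean square difference. The 5 closest were Krt20 (0.52), Enc1 (1.05), Gtse1 (1.13), Fosl1 (1.19) and Phlda3 (1.24), with log2 fold changes of 5.94, 4.67, 4.62, 4.51 and 4.41. Krt20, a keratin, was the gene nearest to Cdkn1a, at 36.5, 92.4 and 78.5 CPM in AA. The 5 closest to Ccnd1 were Kcnip2 (0.082), Npas2 (0.11), Glt28d2 (0.14), Lpcat4 (0.15) and Gnb5 (0.19), and like Ccnd1 none of these 5 was called. Such likeness over 6 libraries is a description, and for Cdkn1a it mostly follows the size of the difference between the groups.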

How the data were processed

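RNA of 6 libraries was measured with a stranded mRNA kit, per the labels' protocols. Reads were demultiplexed with bcl2fastq 2.19, and kallisto and mm10 are named without a role, per the submitters' processing notes. The sources used here do not give the annotation or counting settings. The authors deposited log10 values for 32544 genes; the values themselves show log10(CPM + 1). They were turned back to CPM and logged as log2(CPM + 1). Whole reads were recovered for 100% of values within 0.1 read.

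The test, run on the 14311 genes that reached 1 CPM in 3 or more libraries, was limma's (version 3.58.1, R 4.3.3, with a trended variance), two-sided, with Benjamini-Hochberg adjustment over all of them and calls under 0.05. A fold change refers to log2(CPM + 1) and is too small for low genes. The test was also run on simulated data, which held as many rises as falls and so did not cover the effect of library scaling. Lengths and positions came from GENCODE M21, and promoters from RefSeq (GRCm38.p6). The table is per symbol, of which 27 had turned into dates.

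The genes and lists were chosen with earlier results of these data known. Named are every gene of the set, Trp53, up to 4 called genes per role with the smallest adjusted p (or the 2 most abundant tested genes where none was called), and the 5 nearest profiles of Cdkn1a and Ccnd1. Ccna2 was named after its values were seen. Alternatives were scalings, filters, pseudocounts, variance models, voom, a library-set term, a replicate block, and leaving out each library; merged exon length was added after seeing the data.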

Additional observations from a re-analysis of the deposited data

How the results depend on the processing

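The calls of Cdkn1a and Ccnd2 kept their direction and side of the threshold in every setting run. Over the whole table, higher and lower calls numbered 1606 and 2422 with equalised medians, 1822 and 2077 with quantile normalization, 1948 and 2056 with TMM factors, and 1058 and 423 with the term for DMSO replicates 1 and 2. Leaving out each library gave 1842 to 2839 higher and 803 to 1141 lower, lowest in both without AA replicate 2. In the set, 1 gene (Ccnd3) was called lower with equalised medians, quantile normalization and TMM factors. Pathway genes called lower were 8, 5 and 5 under those scalings, and with the library-set term 5 were higher and 1 lower; leaving out each library gave 7 to 11 higher and 1 to 3 lower. The sign of uncalled genes turned for Cdkn1b, at -0.12, -0.04 and -0.06 under the same scalings and -0.25 with the library-set term. It turned for Cdkn2d at -0.08 with equalised medians and -0.15 with quantile normalization. For Cdkn2c it was 0 with a pseudocount of 5, 0.02 with array weights, 0.04 with the library-set term, and -0.27 to 0.23 when each library was left out (0.04 without DMSO replicate 2, 0.23 without AA replicate 3). The cause was not tested.

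The labels do not say whether a replicate number pairs samples. Deviations of same-numbered libraries from their group means correlated at -0.109, -0.156 and -0.015, and no AA library correlated best with its own number. Deviations from a mean of 3 libraries are not independent, so these values cannot settle whether the numbers pair samples. With the replicate block, 2 genes of the set were called higher and 0 lower, 11 and 2 pathway genes, and 2768 and 1045 genes over the whole table. Depth limits the lowest genes most, since Cdkn1a in DMSO rests on 14 to 78 reads.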

Other observations

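Of the 22 genes whose promoter window held a p53 element with up to 1 mismatch, 7 were among the tested genes. Of these, 4 were called higher in AA, 0 lower and 3 not called, beside 22.3% called higher over all tested genes; with equalised medians the counts were 3 higher and 1 lower, beside 11.2% and 16.9% over all tested genes. Besides Cdkn1a, the called genes were Ccng1 (log2 fold change 2.61, from 188 ± 31.4 to 1143 ± 28.1 CPM, SD, n = 3 each), Gtse1 (4.62, from 0.576 ± 0.367 to 37.4 ± 6.05 CPM) and Rps27l (0.83, from 40.1 ± 10.4 to 71.9 ± 17.1 CPM). Ccng1 encodes cyclin G1, Gtse1 a protein of G2 and S phase that binds p53, and Rps27l a ribosomal protein paralog. Ccng1 and Rps27l were named after their values were seen, and the motif was chosen after the Cdkn1a sequence was seen, so these counts are a description.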
